A study of Homo sapiens with 5 samples.

Results

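Small nucleolar RNA host genes are long non-coding RNA (lncRNA) genes whose introns carry small nucleolar RNAs (snoRNAs). The set comprised every gene named SNHG and a number, plus GAS5, ZFAS1, DANCR and EPB41L4A-AS1, which gave 32 members out of 63827 genes in the annotation (chromosomes 1 to 22 and X). All 32 are annotated as lncRNA genes, and they were compared with the other 18560 lncRNA genes. Binding was read from ChIP-Seq peak lists of Fra-1 (FOSL1), MYC and E2F1 in LM2, a lung-metastatic derivative of the human breast cancer line MDA-MB-231. The labels used here name the antibody of each library and no treatment. For its ChIP-Seq lysates the paper describes LM2 cells carrying a control vector or an shRNA against a factor. Each factor was measured in 1 library, and all 3 were set against the same input DNA, so there was no spread between replicates and no test between factors. An EZH2 library is also labelled in the series and was not used here. After duplicate removal the libraries held between 10758036 tags (input) and 23853621 tags (MYC), and the lists held 17320 Fra-1, 4867 MYC and 36933 E2F1 peaks.

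A snoRNA is trimmed from the spliced intron of its host transcript. Box C/D snoRNAs (SNORD genes) guide methylation of the ribose in ribosomal and other RNAs, box H/ACA snoRNAs (SNORA genes) guide the change of uridine to pseudouridine, and the related small Cajal body RNAs (SCARNA genes) guide the same changes in spliceosomal RNAs. Many host genes begin transcription at a run of pyrimidines, as ribosomal protein genes do, and their spliced RNAs are often short-lived. MYC binds the E-box as a dimer with MAX and is known for its targets in ribosome production, E2F1 is known for cell cycle targets, and Fra-1 is a subunit of the AP-1 dimer.

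A gene was counted as bound when a peak overlapped the window from -2 kb to +2.5 kb around any of its transcription start sites (TSS). MYC peaks lay at 23 of the 32 host genes (71.9%, 95% Wilson interval 54.6 to 84.4%), against 5.44% of the other lncRNA genes. E2F1 peaks lay at 29 (90.6%, 75.8 to 96.8%), against 24.7%. Fra-1 peaks lay at 8 (25%, 13.3 to 42.1%), against 7.18%. All 3 factors were present at 6 host genes (18.8%, 8.89 to 35.3%), against 1.37%. The intervals cover counting error only, and neighbouring genes can share a peak. For all 3 factors the interval of the host genes thus lay above the share of the other lncRNA genes. For Fra-1 this ended when each list was reduced to 4867 peaks (6.25%, 1.73 to 20.1%, against 2.06%) and among genes with a CpG-rich start (19.2%, 8.51 to 37.9%, against 9.39%).

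**Figure D1:**
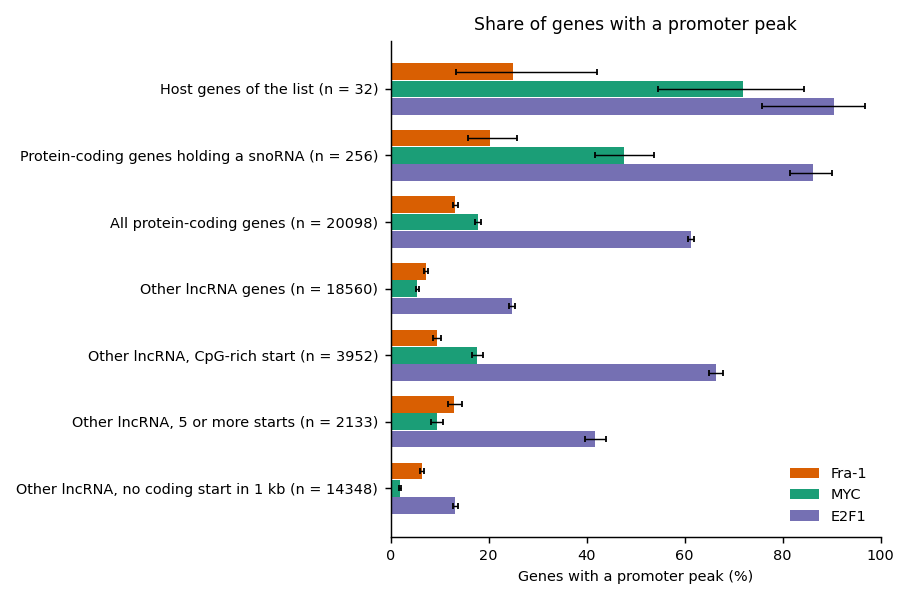
Percentage of genes with at least 1 promoter peak (horizontal axis, bars from 0) for each factor in 7 gene classes, with 95% Wilson intervals as lines and the number of genes in brackets. The host genes reach 71.9% for MYC and 90.6% for E2F1, above all other classes drawn for MYC.

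The sequences under the summits, the positions of highest pileup within peaks, are shown first for the 6 host genes whose strongest MYC summit had the E-box CACGTG within 50 bp. Each line gives the 101 bases centred on the summit in hg19 (GRCh37), read on the strand of the gene, with the E-box in capitals.
SNHG15 (chr7:45026088-45026188, minus strand): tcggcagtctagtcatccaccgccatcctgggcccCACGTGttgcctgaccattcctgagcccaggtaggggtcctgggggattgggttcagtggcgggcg
SNHG20 (chr17:75084742-75084842, plus strand): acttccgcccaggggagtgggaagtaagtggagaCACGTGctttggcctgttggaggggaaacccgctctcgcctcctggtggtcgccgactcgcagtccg
SNHG9 (chr16:2014734-2014834, plus strand): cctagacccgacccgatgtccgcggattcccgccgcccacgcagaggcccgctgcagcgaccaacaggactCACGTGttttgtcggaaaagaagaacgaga
SNHG4 (chr5:138609809-138609909, plus strand): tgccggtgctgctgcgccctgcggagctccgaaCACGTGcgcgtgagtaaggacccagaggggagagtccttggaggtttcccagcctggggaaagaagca
DANCR (chr4:53579105-53579205, plus strand): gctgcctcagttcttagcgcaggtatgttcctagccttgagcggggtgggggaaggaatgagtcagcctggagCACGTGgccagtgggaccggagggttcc
SNHG5 (chr6:86388918-86389018, minus strand): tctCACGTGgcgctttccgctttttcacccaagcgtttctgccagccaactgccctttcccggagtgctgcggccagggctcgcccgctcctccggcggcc

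The strongest Fra-1 summits of 4 host genes had the AP-1 motif TGACTCA, or TGAGTCA when read on the other strand, within 50 bp. It is shown in capitals.
SNHG17 (chr20:37054828-37054928, minus strand): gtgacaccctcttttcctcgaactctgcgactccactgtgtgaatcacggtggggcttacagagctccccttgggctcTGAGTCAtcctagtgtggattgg
SNHG11 (chr20:37079141-37079241, plus strand): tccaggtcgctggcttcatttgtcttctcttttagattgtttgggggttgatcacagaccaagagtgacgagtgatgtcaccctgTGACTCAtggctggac
DANCR (chr4:53579072-53579172, plus strand): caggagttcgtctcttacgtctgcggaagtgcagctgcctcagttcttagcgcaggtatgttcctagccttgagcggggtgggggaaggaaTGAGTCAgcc
SNHG20 (chr17:75084766-75084866, plus strand): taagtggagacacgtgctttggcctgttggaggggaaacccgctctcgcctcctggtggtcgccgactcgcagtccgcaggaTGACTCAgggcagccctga

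The E2F motif was searched as TTTCCCGC, TTTCGCGC, TTTGCCGC and TTTGGCGC on both strands. The strongest E2F1 summit of ZFAS1 carried it in reverse, shown in capitals.
ZFAS1 (chr20:47895034-47895134, plus strand): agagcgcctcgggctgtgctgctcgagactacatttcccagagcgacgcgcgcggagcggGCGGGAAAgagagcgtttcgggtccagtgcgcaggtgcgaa

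The E-box lay near the strongest MYC summit of 6 of 23 host genes (26.1%), against 16.8% of all 4857 MYC peaks on these chromosomes and 16.5% of the strongest MYC peaks of other lncRNA genes. The AP-1 motif lay near the strongest Fra-1 summit of 4 of 8 host genes (50%), against 53.3% of all 17311 Fra-1 peaks. The E2F motif lay near the strongest E2F1 summit of 2 of 29 host genes (6.9%), against 2.94% of the strongest E2F1 peaks of other lncRNA genes and 1.68% of all 36901 E2F1 peaks, distal ones included. Taking all promoter peaks of host genes, the E-box lay near 17.1% of 41 MYC summits, against 16.1% of the MYC promoter peaks of all genes. The E2F motif then lay near 2.3% of 87 E2F1 summits, against 2.1%. The higher shares were thus limited to the strongest peaks. A match describes the letters only, and 17 strongest MYC summits of host genes had no CACGTG in this window. In SNHG15, SNHG20 and SNHG4 the centre of the E-box was 12, 13 and 14 bp from the MYC summit, and in SNHG5 it was 44 bp away. At DANCR and SNHG20 the E-box and the AP-1 motif lay in the same short stretch, with the strongest Fra-1 and MYC summits 33 and 24 bp apart. ZFAS1 had no E-box near its strongest MYC summit, but its second MYC peak (fold enrichment 9.75) had 2 copies.

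The strength of a peak is its fold enrichment, the ratio of the pileup of fragments to the local background from the input. Among genes with a peak, the median strongest MYC fold enrichment was 10.6 at host genes (quartiles 7.26 and 13.8) and 6.99 at other lncRNA genes (5.92 and 8.61). For E2F1 the medians were 42.8 and 18.3, and the lower quartile of the host genes (27.8) was close to the upper quartile of the others (29.1). For Fra-1 they were 8.11 (7.14 and 12.1) and 8.56 (6.44 and 11.8). The host genes with peaks thus had stronger MYC and E2F1 peaks than the other lncRNA genes with peaks. For Fra-1 the quartiles overlapped almost wholly. Protein-coding genes that hold a snoRNA gene came close for MYC, with a median of 9.12 (7.45 and 13.2). Their E2F1 median was 30 (20.8 and 43.4). A strongest peak is a maximum over all windows of a gene, and host genes have more TSSs (median 9.5 against 1). The part of this in the strengths was not tested. Among host genes with a peak, the strongest one had a median percentile of 91 within the MYC list, 97.1 within the E2F1 list and 48 within the Fra-1 list. These percentiles set a maximum per gene against single peaks, distal ones included. The median E2F1 peak of the list had a fold enrichment of 8.88, whereas the strongest promoter peaks of all genes with E2F1 already had a median of 20.8. The same 2 medians were 6.67 and 7.18 in the MYC data, and 8.24 and 8.4 in the Fra-1 data. Of the 10 lncRNA genes with the strongest MYC peaks 3 were host genes, and of the top 100 there were 11. The corresponding counts in the top 100 were 4 for E2F1 and 1 for Fra-1. The genes ranked were 23 host genes and 1010 other lncRNA genes for MYC. They were 29 and 4592 for E2F1, and 8 and 1333 for Fra-1.

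**Figure D2:**
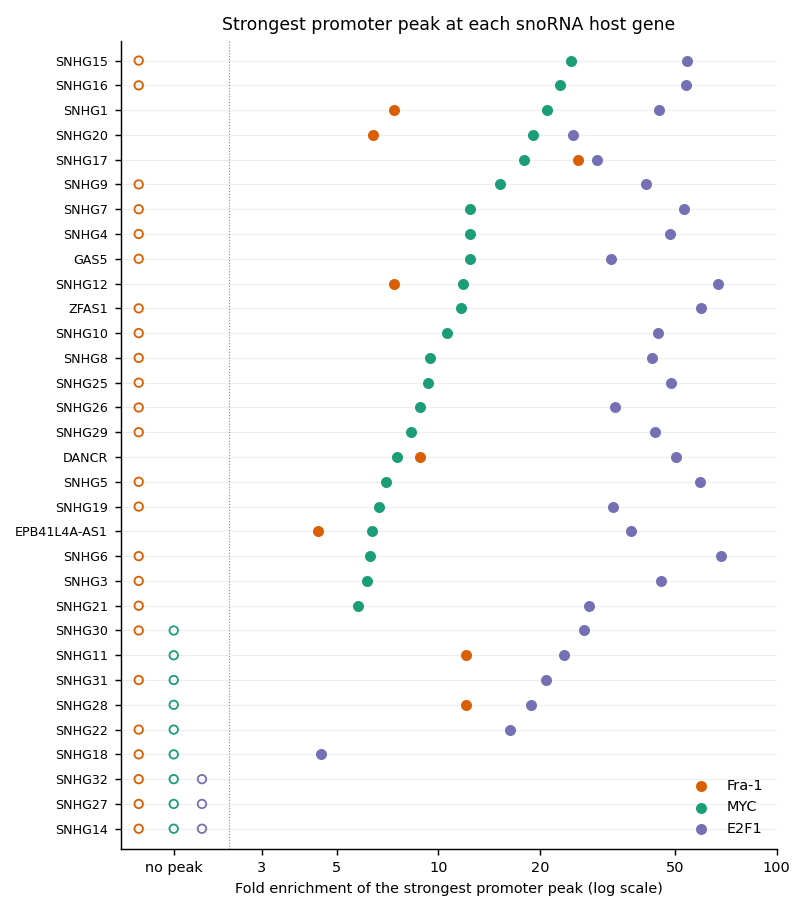
Fold enrichment of the strongest promoter peak (horizontal axis, log scale) of each factor at each of the 32 host genes, ordered by MYC. Filled points are peaks and open circles on the left mark no peak in the list, which is the case for MYC at 9 genes, for E2F1 at 3 and for Fra-1 at 24.

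The strongest MYC peak among host genes was at SNHG15, which carries SNORA9. It spanned chr7:45025593-45026362 with a pileup of 48, a fold enrichment of 24.6 and a -log10 q of 56.2, and its summit lay 21 bp downstream of an own TSS. It ranked 2 among all lncRNA genes, and the E2F1 peak there reached 54.4 with its summit 5 bp from an own TSS. SNHG16, the host of the 3 SNORD1 genes, followed with a fold enrichment of 22.9 at chr17:74553716-74553968 (-log10 q 45.1) and a summit exactly on an own TSS. It shared rank 3 with another lncRNA gene of the same MYC and E2F1 values. Its E2F1 peak had a fold enrichment of 54.1. Neither gene had a Fra-1 promoter peak or a protein-coding TSS within 1 kb, the nearest being 7472 and 6552 bp away.

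SNHG1, the host of 8 box C/D snoRNAs from SNORD22 to SNORD31, had peaks of all 3 factors. MYC reached 21 at chr11:62623037-62623939 (-log10 q 42.6), E2F1 44.8 at chr11:62620381-62624031 (-log10 q 184) and Fra-1 7.39 at chr11:62623545-62623697 (-log10 q 8.9). SNHG1 starts head to head with SLC3A2, which encodes an amino acid transporter subunit. The MYC summit was 163 bp upstream of an own TSS and 5 bp from a TSS of SLC3A2, and the Fra-1 summit was 174 and 16 bp away. The E2F1 summit was 4 bp from an own TSS and 177 bp from that of SLC3A2. At this shared promoter the peaks cannot be given to 1 gene alone.

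SNHG20, the host of SCARNA16, had a MYC fold enrichment of 19.1 at chr17:75084591-75084983 (-log10 q 41.9), E2F1 of 25 at chr17:75084581-75085564 (-log10 q 73.3) and Fra-1 of 6.43 at chr17:75084726-75084926 (-log10 q 8.86). The 3 summits lay 2, 3 and 15 bp from an own TSS. They were also 39, 32 and 15 bp from a TSS of SEC14L1, and they lay about 2 kb downstream of the canonical TSS of SNHG20 (1994 bp for MYC). SNHG17, the host of 4 SNORA71 genes, had its strongest MYC peak at chr20:37063496-37064250 (fold enrichment 17.9, -log10 q 47.9) and its strongest E2F1 peak at chr20:37063459-37064284 (29.5, -log10 q 105). These summits were 53 and 10 bp from an own TSS. Of the 11 Fra-1 peaks at host genes 4 were at SNHG17, and the strongest of them (25.8, -log10 q 56.5) was the strongest Fra-1 peak of the set. It lay at chr20:37054779-37054985, 9146 bp downstream of the canonical TSS and 158 bp upstream of another TSS of the gene, away from the MYC peaks. The Fra-1 peak at the canonical TSS was weaker (5.6, 23 bp from an own TSS).

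SNHG12, the host of SNORA16A, SNORA44, SNORA61 and SNORD99, had an E2F1 fold enrichment of 67.2 at chr1:28907823-28908843 (-log10 q 222), 1 bp from an own TSS. MYC reached 11.8 at chr1:28908219-28908741 (-log10 q 15), 8 bp from an own TSS, and Fra-1 7.37 at chr1:28908431-28908582 (-log10 q 7.01), 85 bp upstream. DANCR, the host of SNORA26, whose lncRNA was named for restraining epidermal differentiation, had 2 MYC peaks of nearly the same strength. The stronger (7.55, -log10 q 10.7) was at chr4:53579012-53579292 and the other (7.15) at chr4:53578538-53578697, and the strongest E2F1 peak (50.5, -log10 q 136) overlapped the weaker of them at chr4:53578190-53578848. The Fra-1 peak (8.82, -log10 q 11.5) lay at chr4:53579066-53579227, at the stronger MYC peak. EPB41L4A-AS1, the host of SNORA13, had the weakest peaks of these 6 genes for MYC (6.35, -log10 q 7.92, chr5:111496390-111496855) and Fra-1 (4.41, -log10 q 4.56, chr5:111496370-111496552). Its E2F1 peak reached 37.1 (-log10 q 143, chr5:111496253-111497540). The summits were 42, 89 and 2 bp from an own TSS for MYC, Fra-1 and E2F1.

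**Figure D3:**
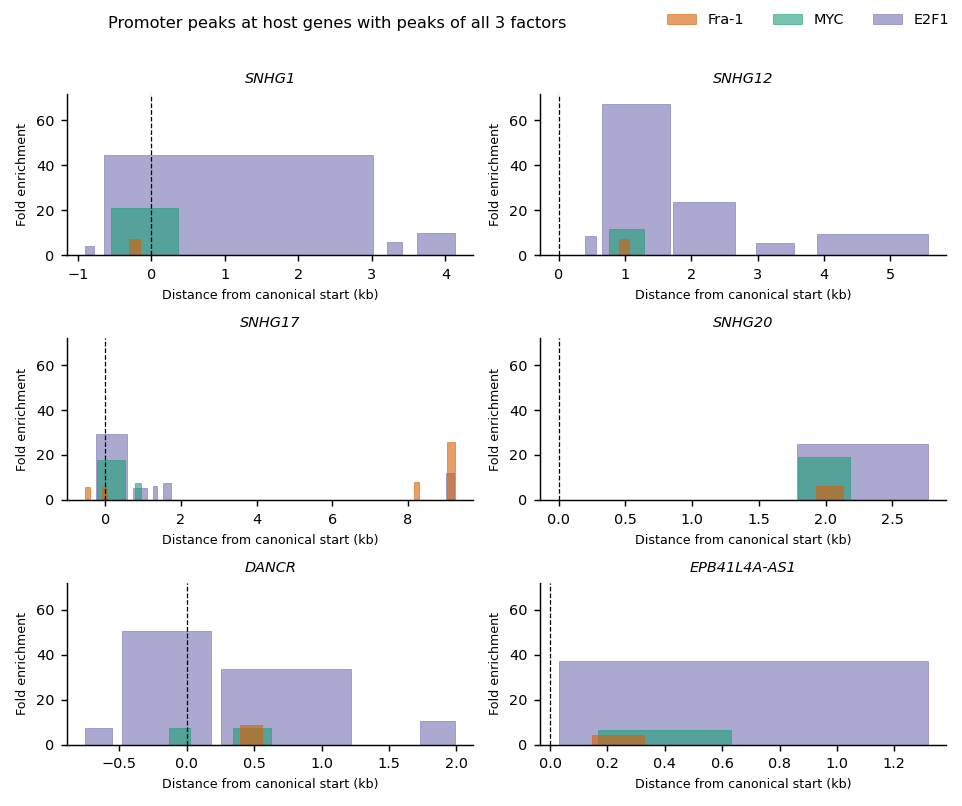
Promoter peaks of the 6 host genes with all 3 factors, drawn as bars from peak start to end (horizontal axis, kb downstream of the canonical TSS, dashed line) with height equal to fold enrichment. MYC and Fra-1 peaks lie inside or at the edge of E2F1 peaks in these panels, except for 2 Fra-1 peaks of SNHG17 that overlap no other peak.

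SNHG11 and SNHG28 had Fra-1 and E2F1 peaks without MYC. At SNHG11, the host of SNORA60 and SNORA71E, the Fra-1 peak (12.1, -log10 q 35.3, chr20:37079094-37079336) was 1179 bp downstream of the nearest own TSS, while the strongest E2F1 peak (23.6) had its summit on an own TSS. At SNHG28 the Fra-1 peak (12.1, -log10 q 20.4, chr1:159818878-159819047) was 124 bp upstream of an own TSS, and the strongest E2F1 peak (18.8) was 506 bp downstream of another. At both genes the Fra-1 and the strongest E2F1 peaks were apart, although at SNHG11 a weaker E2F1 peak (5.83) overlapped the Fra-1 peak.

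Among the host genes with MYC and E2F1 but no Fra-1, SNHG9 (SNORA78) had a MYC fold enrichment of 15.2 (-log10 q 27.1, chr16:2014585-2014970), with the summit 112 bp upstream of its TSS and 20 bp from a TSS of RPS2, a ribosomal protein gene. SNHG7 (SNORA17A and SNORA17B) reached 12.4 (-log10 q 16.7, chr9:139622518-139622769), 55 bp upstream of an own TSS. GAS5 carries 10 SNORD genes and SNORA103, and its RNA was found to accumulate on growth arrest. It also reached 12.4 (-log10 q 19.6, chr1:173836695-173837282), 42 bp from an own TSS and 311 bp from that of ZBTB37. SNHG4 (SNORA74A and SNORA74D) reached 12.4 (-log10 q 17.4, chr5:138609757-138610038), with a summit 39 bp from a TSS that it shares with MATR3.

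ZFAS1, which carries 3 SNORD12 genes and starts opposite ZNFX1, had a MYC fold enrichment of 11.7 (-log10 q 17.6, chr20:47894902-47895447) with the summit 99 bp downstream of an own TSS. SNHG10 (SCARNA13) had 10.6 (-log10 q 15.2, chr14:96000651-96001242), 13 bp from an own TSS and 451 bp from GLRX5. The next 4 had lower values, 9.45 at SNHG8 (SNORA24, -log10 q 12, chr4:119199837-119200311), 9.3 at SNHG25 (SNORD104, -log10 q 13.7, chr17:62223214-62223413), 8.84 at SNHG26 (SNORD93, -log10 q 10.4, chr7:22893821-22894368) and 8.3 at SNHG29 (-log10 q 12.7, chr17:16342149-16342661). Their summits were 43, 27, 6 and 4 bp from an own TSS. The remaining 5 genes with MYC were SNHG5 (6.98), SNHG19 (6.66), SNHG6 (6.26), SNHG3 (6.17) and SNHG21 (5.8). Both SNHG3 and SNHG5 have a TSS that coincides with a protein-coding TSS. The strongest MYC summit of SNHG3 was 296 bp from an own TSS. A second MYC peak there (5.6) had a larger pileup (15 against 10). Its summit was 25 bp from an own TSS and 11 bp from a TSS of RCC1. At SNHG19 the strongest MYC summit was 2215 bp from the nearest own TSS but 102 bp from that of RAB26. A second MYC peak (6.05) lay 108 bp from its own TSS. This second peak had the larger pileup (17 against 8) and -log10 q (7.03 against 5.59). Its fold enrichment was lower because its background was higher (1.98 against 0.351).

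The strongest E2F1 peak of the set was at SNHG6, the host of SNORD87, with a fold enrichment of 68.6 (-log10 q 200, chr8:67836897-67838072) and a summit 24 bp from an own TSS. SNHG12 was next at 67.2, then ZFAS1 at 59.9 (-log10 q 208, chr20:47894829-47895917), SNHG5 at 59.4 (-log10 q 205, chr6:86387069-86389099) and SNHG15 at 54.4 (-log10 q 170, chr7:45025524-45026681). The order differed from that of MYC, since SNHG6 and SNHG5 had MYC peaks of only 6.26 and 6.98. The 4 genes bound by E2F1 alone had weaker E2F1 peaks, with 26.9 at SNHG30, 20.8 at SNHG31, 16.3 at SNHG22 and 4.5 at SNHG18. At SNHG31, SNHG22 and SNHG18 the strongest E2F1 summit was nearer to a protein-coding TSS than to an own one (BARD1, 45 bp; ACAA2, 137 bp; SEMA5A, 1323 bp). All 23 host genes with MYC also had E2F1, as did 99.4% of the other lncRNA genes with MYC and 99.7% of the protein-coding genes with MYC, so this was not particular to the host genes.

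**Figure D4:**
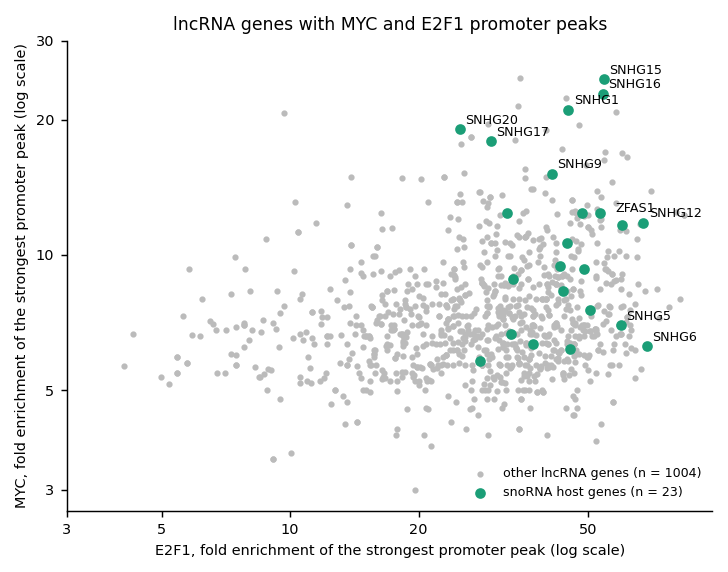
Fold enrichment of the strongest MYC promoter peak (vertical axis) against that of the strongest E2F1 promoter peak (horizontal axis), both on log scales, for lncRNA genes with both. The 23 host genes (green) include SNHG15 and SNHG16 near the top and SNHG6 and SNHG12 towards the right of the 1004 other lncRNA genes (grey).

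The summits at host genes lay close to their own TSSs. For the strongest MYC peaks the median distance was 42 bp, and 18 of 23 were within 100 bp, against a median of 269 bp and 25.7% for other lncRNA genes with MYC. For E2F1 the median was 24 bp, with 22 of 29 within 100 bp, against 244 bp and 30.7%. For Fra-1 it was 106 bp, with 4 of 8 within 100 bp, against 696 bp and 18.3%. Host genes have more annotated TSSs (median 9.5, range 2 to 111) than the other lncRNA genes (median 1), which shortens such distances and widens the windows, to a median of 6650 bp against 4501 bp. The part of this in the distances was not tested. By annotation, 15 of the 23 strongest MYC summits were in an exon of the host gene, 2 in an intron and 6 outside it, and for E2F1 these numbers were 19, 3 and 7. All 41 MYC promoter peaks at host genes overlapped an E2F1 peak, near the background of 97.8% of 1226 MYC promoter peaks at other lncRNA genes. The strongest MYC and E2F1 summits were a median of 85 bp apart, within 100 bp at 14 of 23 genes. Of the 11 Fra-1 peaks, 6 overlapped a MYC peak and 8 an E2F1 peak. The distances between MYC and E2F1 summits and the overlaps of Fra-1 peaks were not computed for other lncRNA genes. Neither can therefore be called particular to the host genes.

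**Figure D5:**
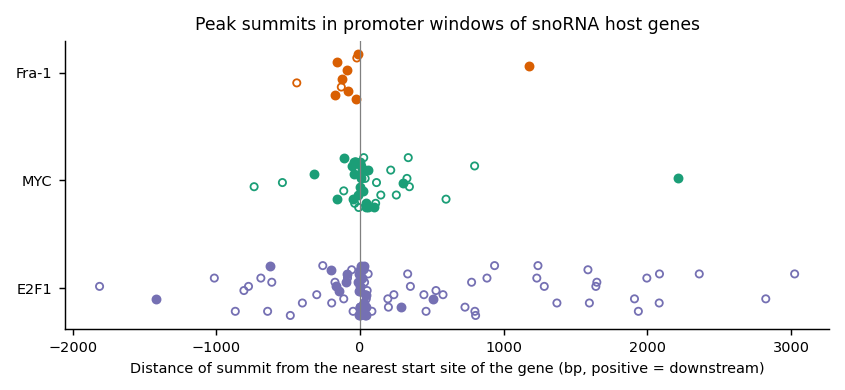
Distance of each promoter peak summit from the nearest TSS of its host gene (horizontal axis, bp, positive downstream) for the 11 Fra-1, 41 MYC and 87 E2F1 peaks, with filled points for the strongest peak of each gene. Most filled points sit within 250 bp of a TSS, and exceptions include SNHG19 for MYC at 2215 bp and SNHG11 for Fra-1 at 1179 bp.

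Many host genes share their start region with a protein-coding gene. A protein-coding TSS lay within 1 kb of a TSS of 14 host genes, against 22.7% of the other lncRNA genes. Among the 18 host genes without one, MYC was at 72.2% and E2F1 at 83.3%, against 1.87% and 13.2% of other lncRNA genes without one. The host genes were also rich in CpG dinucleotides at the canonical TSS, 26 of 32 (81.2%) against 21.3%, and their median G and C content was 58.7% against 48.9%. Among genes with a CpG-rich start, MYC was at 73.1% of host genes and 17.7% of the others, and E2F1 at 92.3% and 66.4%. The median strongest fold enrichment in this class was 10.6 against 6.99 for MYC and 43.2 against 22.8 for E2F1. When a CpG-rich start, at least 5 TSSs and no protein-coding TSS within 1 kb were all required, 14 host genes remained, 11 with MYC (78.6%) and 12 with E2F1 (85.7%), against 8.59% and 55.2% of 326 other lncRNA genes. For Fra-1 the shares there were 21.4% and 11.7%, with an interval for the host genes of 7.57 to 47.6% that covers the value of the others.

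In the 300 bases around the canonical TSS (250 upstream, 50 downstream), CACGTG was found at 6 host genes (18.8%), against 5.46% of the other lncRNA genes, the E2F motif at 4 (12.5%) against 1.53%, and TGACTCA at 0 against 5.82%. In the same order, the shares were 11.3%, 8.98% and 1.17% of protein-coding genes that hold a snoRNA. They were 8.72%, 4.34% and 3.57% of all protein-coding genes. CACGTG and the E2F forms contain CG, and the part of CpG content in these shares was not tested. A canonical start at C followed by 4 pyrimidines was found at 4 host genes (12.5%) against 2.77% of other lncRNA genes and 18.4% of the protein-coding genes that hold a snoRNA. All 4 had MYC and E2F1 peaks, as did 71.9% of the 32 host genes. The starts of GAS5, SNHG29 and ZFAS1 are shown from -15 to +20 of the canonical TSS, with the run of C and T in capitals.
GAS5 start: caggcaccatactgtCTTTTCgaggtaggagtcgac
SNHG29 start: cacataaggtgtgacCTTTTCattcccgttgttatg
ZFAS1 start: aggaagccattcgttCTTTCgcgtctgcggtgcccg

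By the RefSeq annotation, 30 of the 32 genes hold a snoRNA or SCARNA gene, in all 121 SNORD, 22 SNORA and 4 SCARNA genes, of which 83 SNORD genes are in SNHG14. MYC was at 9 of 13 genes with SNORD only, 9 of 11 with SNORA only, 3 of 4 with SCARNA only and both genes with SNORD and SNORA (GAS5 and SNHG12). E2F1 was at 11, 11, 4 and 2 of these. Fra-1 was at 1 of 13 with SNORD only, 4 of 11 with SNORA only, 1 of 4 with SCARNA only, 1 of 2 with both and 1 of 2 with none. SNHG27 and SNHG28 hold none in this annotation, and neither had a MYC peak. The other host genes without MYC (SNHG11, SNHG14, SNHG18, SNHG22, SNHG30, SNHG31 and SNHG32) each hold a snoRNA or SCARNA gene. Without regard to this content, 23 of the 32 host genes had a MYC peak, 29 had E2F1 and 8 had Fra-1. The classes are small, and a difference in binding between them was not tested.

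There were 3 host genes that had no promoter peak of any factor. SNHG14, a long transcript of the imprinted Prader-Willi region, had no peak inside the gene, and its nearest E2F1 summit was 21 kb from an own TSS. SNHG27 had no peak inside the gene either, with its nearest Fra-1 summit 293 kb from an own TSS. SNHG32 (SNORD48 and SNORD52) lies in a stretch of chromosome 6 in the major histocompatibility region, from 28411450 to 33538873 (5.13 Mb), in which the 3 lists hold 0 peaks. This stretch contains the canonical TSSs of 184 protein-coding and 93 lncRNA genes, and 97 protein-coding genes lie within 1 Mb of SNHG32 with no peak of any factor. Meanwhile 18 E2F1 peaks and 1 MYC peak were listed on alternate haplotype sequences of chromosome 6. The absence of peaks at SNHG32 is therefore not a measurement of this gene alone, and its cause was not tested.

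The pathway beyond the host genes was read from 18 genes. They encode core proteins of snoRNPs, the particles of snoRNA and protein, or factors for the assembly and transport of these particles. MYC lay at 15 (83.3%), E2F1 at 18 and Fra-1 at 4. All 4 box C/D core genes (FBL, the methyltransferase fibrillarin, with NOP56, NOP58 and SNU13) had both MYC and E2F1, with MYC fold enrichments of 12.7, 9.88, 16.2 and 7.27. All 4 box H/ACA core genes also had both, with MYC at 14.3 for DKC1, the pseudouridine synthase dyskerin, and 6.75, 6.2 and 6.14 for GAR1, NHP2 and NOP10. Of 10 assembly and transport genes, 7 had MYC, and NAF1, RPAP3 and SHQ1 did not. Fra-1 was at NOP58, NOLC1, NAF1 and RPAP3. Among the 256 protein-coding genes that hold a snoRNA gene, MYC was at 47.7% (41.6 to 53.8%), E2F1 at 86.3% (81.6 to 90%) and Fra-1 at 20.3% (15.8 to 25.7%), against 17.8%, 61.3% and 13.2% of all protein-coding genes. The 32 host genes had a higher MYC share than these, and the intervals, which cover counting error only, did not overlap (54.6 to 84.4%). Since strand was not considered, a protein-coding gene that overlaps a host gene and its snoRNAs can be among the 256. Of 8 other lncRNA genes that hold a snoRNA, 3 had MYC (STARD7-AS1, STX18-AS1 and THAP9-AS1) and 6 had E2F1.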

How the data were processed

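ChIP-Seq libraries of Fra-1, MYC, E2F1 and input DNA from LM2 cells were used, 1 library each, and groups followed the labels. Before deposit, the authors used Trimmomatic 0.27 for trimming and Bowtie 0.12.5 for alignment to masked hg19, kept unique matches without duplicates, and ran MACS2 2.0.10 on each library (q 0.01, shared input). The tool versions are from the submitters' processing notes. The lists deposited by the authors give a signal (the pileup of fragments at the summit, with the larger library scaled towards the smaller). They also give a fold enrichment, which the authors' peak caller computed as a ratio to the local input background with a pseudocount of 1. The p-values and q-values were deposited by the authors as −log10 values. Because depth differs between libraries, strengths are best compared within a factor.

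Genes and TSSs were those of GENCODE 44 on GRCh37. A peak was assigned to a gene by an overlap of at least 1 bp with a window of 2 kb before to 2.5 kb after a TSS. The strongest peak was the one with the largest fold enrichment, so a peak over a low input background can outrank one with a larger pileup. Shares have 95% Wilson intervals. Sequences came from GRCh37. A start was CpG-rich when the 500 bases around it held more than 50% G and C and a CpG ratio above 0.6. The snoRNA content was taken from RefSeq names and neighbours (all 32 members matched by symbol) without regard to strand, since the GENCODE annotation used here lacked several of these snoRNAs. The planned strand rule was not applied. The sequence of 1 further start is not reported here. The members and gene lists were chosen with earlier results of these data known. Full peak values are given for members with all 3 factors, for the other members with the 12 largest MYC fold enrichments, for members with Fra-1 and for the 5 with the largest E2F1 fold enrichments. Alternatives were stricter peaks, equal numbers of peaks, other windows, summits in place of peaks, and classes of genes. Peak assignment was tested on simulated data, where 200 of 200 planted peaks were assigned to their gene and 0 of 800 window edges were wrong. Python 3.11.15, numpy 2.4.6, pandas 2.3.3 and matplotlib 3.10.9 were used.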

Additional observations from a re-analysis of the deposited data

How the results depend on the processing

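With 1 library per factor no replicate could be left out. No paired analysis was possible because each factor has 1 library. The share of host genes with MYC was 71.9% in the full list and 68.8% with a −log10 q of at least 5, where SNHG6 was lost, and it was unchanged with a minimum fold enrichment of 5, windows of 1 kb, 1 TSS per gene and summits in place of peaks. With either minimum, host genes with Fra-1 were 21.9% and those with all 3 factors 15.6%, and EPB41L4A-AS1 was lost. Fra-1 was at 21.9% with 1 kb windows, where SNHG11 was lost. It was at 18.8% with 1 TSS, where SNHG11 and SNHG28 were lost. E2F1 was at 87.5% with either minimum and with 1 kb windows, where SNHG18 was lost. Equal numbers of peaks leave the MYC list as it is. Keeping the 4867 peaks with the largest −log10 q in each list lowered the host genes with Fra-1 to 6.25% (SNHG11 and SNHG17), with E2F1 to 75% and with all 3 factors to 3.12%, and the other lncRNA genes to 2.06% for Fra-1 and 8.35% for E2F1. The other lncRNA genes with Fra-1 were 6.6% with the −log10 q minimum, 6.64% with the fold enrichment minimum, 4.83% with 1 kb windows, 6.01% with 1 TSS, 13% with at least 5 TSSs, 6.31% without a protein-coding TSS within 1 kb, 9.39% with a CpG-rich start and 11.7% with these 3 restrictions together. With MYC they were 3.79% (−log10 q), 4.74% (1 kb), 9.38% (5 TSSs), 1.87% (no protein-coding TSS), 17.7% (CpG-rich) and 8.59% (together). With E2F1 they were 24% (−log10 q), 23.8% (fold enrichment), 21.9% (1 kb), 23.4% (1 TSS), 41.8% (5 TSSs), 13.2% (no protein-coding TSS), 66.4% (CpG-rich) and 55.2% (together). The CpG-rich class, the 3 restrictions together and the exclusion of the peak-free stretch of chromosome 6 were chosen after seeing the data. The count with all 3 factors fell from 6 to 1 host gene and that with Fra-1 from 8 to 2 with equal numbers of peaks, so both depend on list length, and the effect of depth was not tested.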
